A study of Mytilus galloprovincialis with 8 samples.

Results

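The transcripts described here are 79 contigs of the normalized cDNA library made from the digestive gland of exposed mussels (Mytilus galloprovincialis) whose RNA rose in the digestive gland of mussels fed the okadaic acid (OA)-producing dinoflagellate Prorocentrum lima and whose mean ratio in gill stayed near 0. They were chosen by their measured ratios, out of 19188 probes for that library and 51300 probes in all. For every spot the background was subtracted, negative differences were set to 0, 50 was added, and the log2 of the exposed over the control signal was centred on the median of its array. A contig was selected on a ratio over 1.5 on this log2 scale in both digestive gland replicates and a mean ratio within -0.5 to 0.5 in gill. The ratios that chose the transcripts are therefore given as a description and not as evidence of a response.

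Gene expression was measured on 8 Agilent 2-colour arrays, 4 with RNA from digestive gland and 4 with RNA from gill. The exposed group, adult mussels from the wild, received P. lima for 24 h on top of a diet of microalgae (Isochrysis galbana and Tetraselmis suecica), which the control group received alone. The dose is written as 200 cells/ml in the sample records and as 200 cells/L in the published methods, and this difference was not resolved. Each array set RNA from a pool of 5 exposed mussels against RNA from a pool of 5 control mussels, and each of 2 replicates per tissue was hybridized a second time with the dyes exchanged (a dye swap). A replicate value is the mean over its array and its dye swap, so n = 2 pairs of pools per tissue. The records do not say whether a gill pool and a digestive gland pool came from the same mussels.

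OA is a polyether toxin that inhibits the serine/threonine phosphatases PP1 and PP2A and causes diarrhetic shellfish poisoning in people who eat contaminated shellfish. In bivalves most of the toxin gathers in the digestive gland, the organ in which filtered algae are digested inside the cells of blind tubules, whereas the gill is a ciliated organ that filters the water and captures the algae. A normalized library is one from which much of the cDNA of abundant transcripts has been removed, so that rare transcripts have a better chance of being sequenced. The array carried probes for this library, for the normalized library of control mussels and for a forward subtracted library (suppression subtractive hybridization, SSH), which enriches cDNAs more abundant in exposed than in control animals. All of these libraries were made from digestive gland, none from gill.

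The probes are identified by contig names alone. The names, such as cDNA_MGT.90_c4178, give neither a gene nor a protein nor the organism a contig came from, so no function could be attached to any of the 79 transcripts. For the same reason the tissues could not be checked against marker genes, and no other probe could be matched to the same transcript. The library of a probe was likewise read from its name (MGT for exposed, MGC for control), which does not itself state the normalization. Contigs are written below by the last part of their names (c4178). In 17 of the 79 (21.5%) the name carries the mark "rep", against 29.1% of all probes for the exposed library. Their median ratio in digestive gland was 2.20, beside 2.08 for the other 62.

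In digestive gland 51.7% to 57.4% of the spots that are not controls were well above background in both channels, the mark that the scanner software sets, and in gill 37.0% to 39.6%. None of the spots reached saturation. The slide and the scan were the same for the 8 arrays. An effect of the position on the slide was not separated from that of the tissue. On 1 digestive gland array, the dye swap of replicate 2, the records name a dye Cy6, which was read as Cy5. On that array the 79 transcripts had ratios from 0.93 to 8.14 with a median of 2.15, and 71 of them were above 1.5.

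In all, 105 probes of the exposed library exceeded 1.5 in both digestive gland replicates. Of these, 26 had a mean gill ratio above 0.5, none had one below -0.5, and the other 79 are the transcripts described here. They make up 0.412% of the probes for the exposed library. The same limits were met by 390 probes of the SSH forward library (2.59% of it) and by 6 of the control library (0.0352%).

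**Figure D1:**
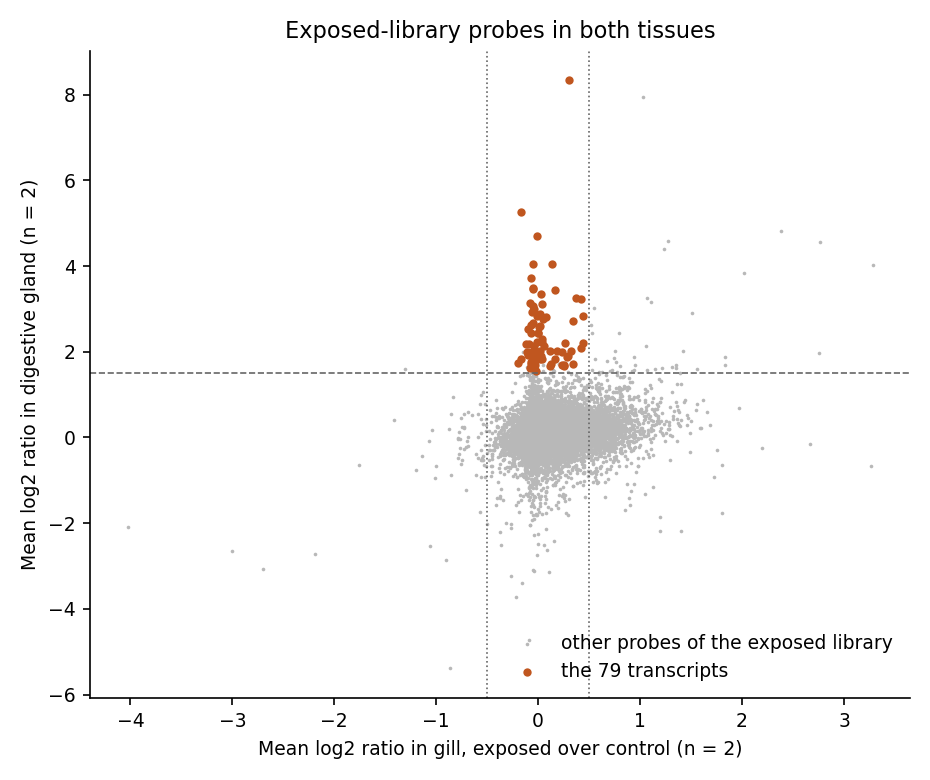
Mean log2 ratio of exposed over control signal in gill (horizontal axis) and digestive gland (vertical axis), each over 2 replicates, for the 19188 probes of the exposed library. The dashed line marks 1.5 and the dotted lines -0.5 and 0.5; the limit of 1.5 applied to each replicate, not to their mean. The 79 transcripts (orange) lie in a narrow column from 1.55 to 8.34, and the probes to its right, with a mean gill ratio above 0.5, are not among them.

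The size of the rise varied widely among the 79 transcripts. The median of the mean ratios was 2.13 on the log2 scale, with a median of 1.88 in replicate 1 (lowest 1.52, highest 8.12) and of 2.35 in replicate 2 (lowest 1.58, highest 8.56). The mean ratio was over 3 for 16 transcripts, over 2 and up to 3 for 31 and at most 2 for 32. Only the 5 highest exceeded 4. For comparison, the median over all 51300 probes was -0.10 on this scale. The arrays were hybridized with RNA of whole tissue, so a change in the share of a cell type and a change in the RNA per cell cannot be told apart. The names also do not say whether a contig came from the mussel or from the algae it was fed. The order was stable at the top, where the 10 highest transcripts of replicate 1 were also the 10 highest of replicate 2.

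**Figure D2:**
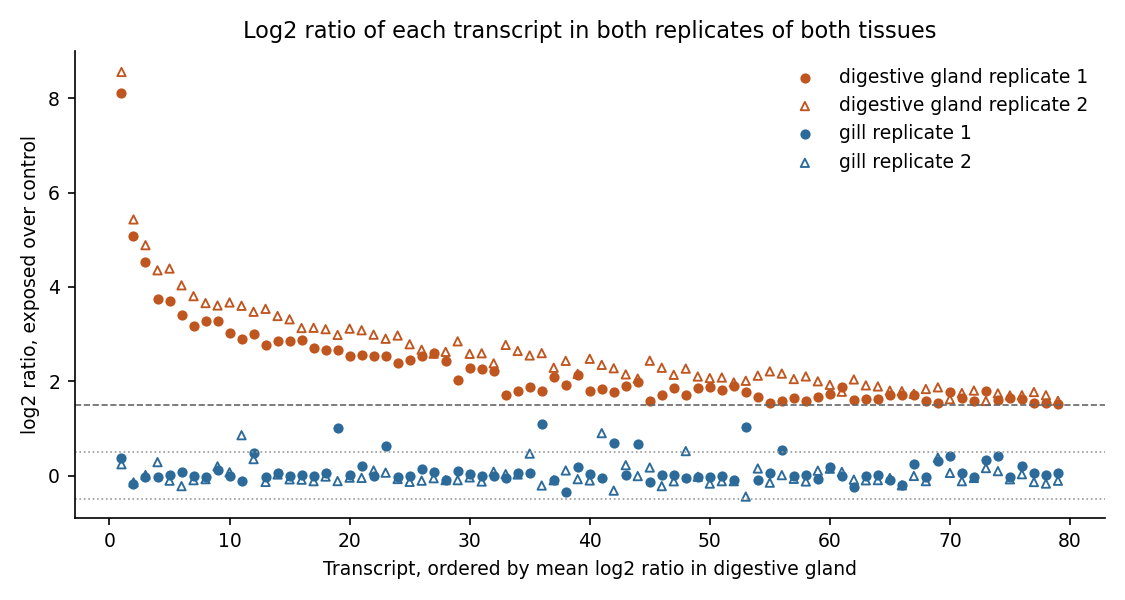
Log2 ratio of exposed over control signal for each of the 79 transcripts, ordered by the mean over both digestive gland replicates, in each replicate of digestive gland (orange) and gill (blue). The dashed line marks 1.5 and the dotted lines -0.5 and 0.5. The digestive gland values fall from 8.56 for the first transcript to just above 1.5, and 10 transcripts have 1 gill replicate outside the dotted lines.

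The transcript c4178 (probe CUST_21053_PI427859148) stood far above the rest. Its log2 ratio was 8.12 in replicate 1 and 8.56 in replicate 2 of digestive gland, against 0.36 and 0.24 in gill. The background-subtracted intensity of the exposed channel in digestive gland was 33850 and 13962 on the 2 arrays of replicate 1 and 48033 and 27180 on those of replicate 2. The control channel of the same arrays read 16, 42, 6 and 54 and was well above background on 3 of the 4. The groups lay far apart in every hybridization. In gill the exposed channel read 17.5, 14.0, 22.0 and 6.5 and was well above background on 3 of 4 arrays, whereas the control channel read at most 1.5 and was so on none.

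The next transcripts were c4867 (CUST_21710_PI427859148) and c13377 (CUST_27378_PI427859148). The log2 ratio of c4867 was 5.08 and 5.43 in digestive gland and -0.18 and -0.15 in gill. Its exposed intensity in digestive gland was 2657 and 1011.5 in replicate 1 and 3492 and 2028.5 in replicate 2, while the control channel read 0 on all 4 arrays. For c13377 the ratios were 4.53 and 4.89 in digestive gland and -0.03 and 0.01 in gill. Neither transcript was well above background in control digestive gland or in any gill pool, so both had a measured level in exposed digestive gland alone.

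Below these lay c17095 (3.75 and 4.35) and c20061 (3.70 and 4.39), with nearly equal means. Then came rep_c7436 (3.41 and 4.04), rep_c17852 (3.17 and 3.81), c22808 (3.28 and 3.66), c4139 (3.28 and 3.61) and c19542 (3.03 and 3.67). Both replicates of each of these transcripts differed by 0.32 to 0.69, with replicate 2 higher in all 7. In each replicate c17095 and c20061 lay above rep_c7436, and rep_c7436 above the other 4, whereas the order of c17095 and c20061 was reversed between the replicates. Among the 10 highest transcripts, rep_c7436 and c19542 were well above background in control digestive gland on all 4 arrays, c4178 was on 3 and the other 7 were on none.

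**Figure D3:**
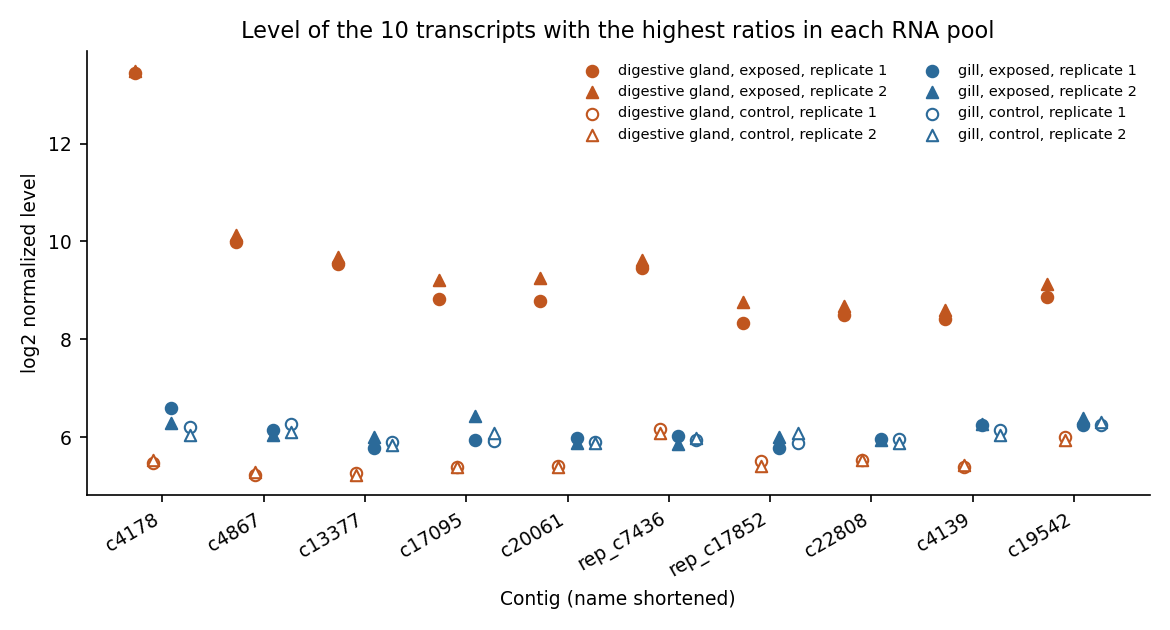
Log2 normalized level (normexp, loess and Aquantile) of the 10 transcripts with the highest ratios in each of the 8 RNA pools, as the mean over an array and its dye swap; orange is digestive gland, blue is gill, filled symbols are exposed and open symbols control pools. Both exposed digestive gland pools sit at 8.33 to 13.49 and every other pool below 6.6, and levels should be compared within a contig and not between contigs.

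The levels of single RNA pools show the same separation. For c4178 the normalized log2 level was 13.44 and 13.49 in the exposed digestive gland pools and 5.46 and 5.54 in the control digestive gland pools. The gill pools of this transcript had levels of 6.58 and 6.29 (exposed) and 6.21 and 6.04 (control). For rep_c7436, which had a measured level in control digestive gland, the exposed pools had 9.45 and 9.63 and the control pools 6.17 and 6.08. Over all 79 transcripts both exposed digestive gland pools had a higher level than both control pools, a separation that the choice of the transcripts fixes.

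At the lower edge, the transcripts closest to the limit of 1.5 by the lower of both replicates were c15759 (1.52 and 1.59), c12917 (1.53 and 2.21) and c4148 (1.54 and 1.87). The probes closest outside were c18158 (1.499 and 2.033), c18163 (1.52 and 1.48) and rep_c17165 (1.48 and 2.11). By the lower replicate these 6 spanned 1.48 to 1.54. At the edge in gill, the highest mean ratios inside were 0.44 for c5216 and 0.44 for rep_c7610, and the lowest outside were 0.52 for c17972 and 0.53 for c21718.

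The 79 transcripts were sorted by whether the control channel in digestive gland was well above background. The resulting classes overlapped in control intensity. The lowest value was 3.5 in transcripts marked on all 4 arrays, and the highest was 22.0 in those marked on none. In exposed digestive gland each of the 79 was well above background on all 4 arrays (for a probe with 2 spots, at either spot), as were all 390 SSH forward probes and all 6 control-library probes with the same limits and 53.6% of all probes for the exposed library. In control digestive gland 37 (46.8%) were so on all 4 arrays, 36 (45.6%) on none and 6 on 1 to 3. Among all 19188 probes for the exposed library the corresponding shares in control digestive gland were 47.4% on all 4 arrays and 40.8% on none. Among the 390 SSH forward probes with the same limits they were 38.7% and 50.5%. Shares of the whole exposed library, here and below, include the 33.0% of its probes not well above background in exposed digestive gland on any array. They therefore have another base than the shares of the 79 and of the 390.

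For the 37 transcripts measured in control digestive gland, the rise was 2.75-fold to 10.7-fold with a median of 3.45-fold, as the limma fit on loess-normalized ratios gave it. The highest of these were rep_c7436 (10.7-fold), rep_c12598 (8.20-fold) and c19542 (8.15-fold). For c12917 the control digestive gland was itself bright, with intensities of 1920, 8463, 1887 and 6844 in the control channel and 18273, 7690, 27211 and 16527 in the exposed channel. On the array of replicate 1 with exposed RNA in Cy3, the exposed channel (7690) was below the control channel (8463) before normalization. The rise of c12917 was 3.32-fold on loess-normalized ratios averaged over both dyes. Control intensities of the 37 in digestive gland had a median of 72.6 and a lowest value of 3.5. The fit added an offset of 50 to both channels, which lowers a fold where the control signal is weak. For rep_c7436 the control channel read 25.0, 112, 24.0 and 73.5 and the exposed channel 1623, 782.5, 2478.5 and 1484. These transcripts were thus measured in control mussels and were higher in exposed mussels, by folds that depend on the offset, the normalization and the averaging over both dyes.

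For the 36 transcripts that were not well above background in control digestive gland, the control level is only a bound. It was set for each array at the higher of the transcript's own level and the lowest level among the probes well above background in that channel, and averaged over the arrays. In 29 of the 36 the transcript's own level was the higher on all 4 arrays, and in 35 the result lay within 0.01 (log2) of the fitted ratio. The rise was at least 2.38-fold for the lowest of the 36 and at least 28.0-fold for c4867. Bounds over 10-fold were also found for c13377 (at least 20.4-fold), c17095 (at least 12.4-fold) and c20061 (at least 12.2-fold). The control channel of these 36 read between 0 and 22.0 in digestive gland and the exposed channel between 57.0 and 3492. In 8 of the 79 transcripts, the control channel was at or below its local background on each of the 4 arrays.

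**Figure D4:**
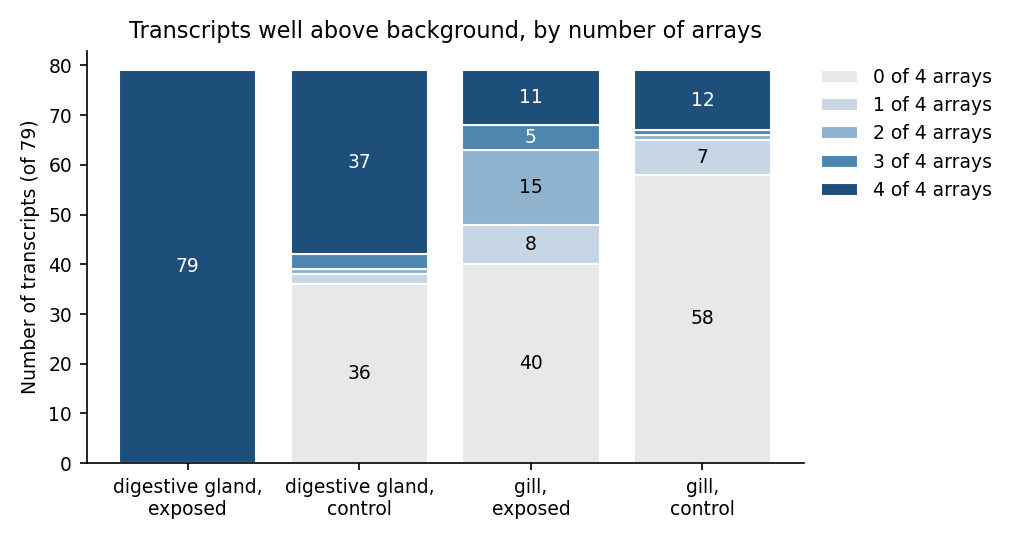
Number of the 79 transcripts (vertical axis) that were well above background on 0, 1, 2, 3 or 4 of the 4 arrays, for exposed and control RNA of each tissue. All 79 were above background on 4 arrays in exposed digestive gland, which follows largely from the limits, against 37 in control digestive gland, 11 in exposed gill and 12 in control gill. Among all probes for the exposed library these shares were 53.6%, 47.4%, 37.6% and 36.4%, in the same order.

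Well above background on all 4 gill arrays were 11 transcripts (13.9%) with exposed RNA and 12 (15.2%) with control RNA, against 37.6% and 36.4% of all probes for the exposed library. A gill ratio near 0 had different meanings for different transcripts. For 36 of the 79 (45.6%), neither channel was well above background on any gill array, so the ratio compares 2 signals at background. Their background-subtracted intensities in gill ranged from 0 to 14.5 with a median of 0.5, and because 50 was added to both channels their mean ratios lay between -0.16 and 0.05. For these transcripts no level was measured in gill and no change could be seen there at this signal. Among all probes for the exposed library 44.8% were likewise never well above background in gill, and among the 390 SSH forward probes 65.6%. For 20 of the 36 (25.3% of the 79), control digestive gland was at background too, so that among these RNAs they had a measured level in exposed digestive gland alone. Gill and control digestive gland were both at background for 34.6% of all probes for the exposed library and 38.5% of the 390 SSH forward probes. The share of the library includes probes that were at background in exposed digestive gland too, so it cannot be set directly against the 25.3%.

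In 8 of the 79 transcripts the gill signal was measured throughout, that is, well above background for exposed and control RNA on each of the 4 arrays. These were c6035, rep_c10961, c20207, c18261, c2062, rep_c21979, c1376 and rep_c6401, and all 8 were also measured in control digestive gland. Their loess-normalized log2 ratios were 1.47 to 2.48 in digestive gland (median 1.71) and -0.23 to 0.22 in gill. For c2062, for example, the log2 level was 8.44 and 8.22 in the exposed gill pools and 8.58 and 8.54 in the control gill pools. In digestive gland the level of c2062 was 8.54 and 8.59 in the exposed pools and 6.94 and 6.86 in the control pools. These 8 transcripts are the ones for which a measured level in both tissues and both treatments stands behind the contrast between tissues. Their background-subtracted intensities in gill ranged from 6.0 to 188 with a median of 37.0. The 50 added to both channels lowers the size of ratios between such weak signals. By the values that chose them, 2 of the 8 had a gill replicate outside the window of -0.5 to 0.5. These were c6035 (0.62 in replicate 1) and c18261 (0.52 in replicate 2).

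The remaining 35 transcripts were above background in gill on some arrays, more often with exposed than with control RNA. Counting arrays for each transcript, exposed gill was above background on more arrays than control gill in 24 of the 79 (30.4%), and on fewer in 9 (11.4%). Over all probes for the exposed library these shares were 12.5% and 4.98%, and over the 390 SSH forward probes 23.3% and 4.62%. In 15 transcripts (19.0%, against 3.65% of all probes for that library and 14.1% of the 390 SSH forward probes) exposed gill was above background on at least 2 arrays and control gill on none, and in none was the reverse found. The clearest cases were c3958 and c18343, above background in exposed gill on all 4 arrays and in control gill on none. The same was found for 113 of the 19188 probes for the exposed library and 9 of the 390 SSH forward probes.

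For c3958 the exposed gill channel read 21.0 and 20.0 in replicate 1 and 25.0 and 12.5 in replicate 2, against 0 in the control channel on every array. Its gill ratio, 0.49 and 0.35, was lowered by the 50 added to both signals. For c18343 the exposed gill channel read 15.0 and 21.0 in replicate 1 and 13.5 and 9.0 in replicate 2, against 0 to 7.0 in the control channel. Both transcripts were thus selected as unchanged in gill although a weak signal appeared there in exposed pools. In exposed digestive gland the channel read from 239.5 to 804 for c3958 and from 102 to 202.5 for c18343.

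Gill replicates did not always move together. In 10 transcripts 1 gill replicate lay outside -0.5 to 0.5 while the mean of both lay inside, in 7 of them replicate 1 and in 3 replicate 2. The largest gap was that of c2267, with 1.02 in replicate 1 and -0.45 in replicate 2. The ratio was 1.09 and -0.21 for rep_c7610 and 1.01 and -0.12 for c5216, whereas rep_c12672 (-0.05 and 0.90) and rep_c12598 (-0.10 and 0.86) had the higher value in replicate 2. In 7 of these 10 replicates both arrays of the dye swap lay outside the window on the same side, and in 9 they had the same sign; for c18261 they gave 1.18 and -0.14 in replicate 2. For c5216 the exposed gill channel read 65.5 and 42.0 on the arrays of replicate 1 and 4.0 and 0 on those of replicate 2. Of the 15 transcripts above background in exposed gill on exactly 2 arrays, 5 were so on both arrays of replicate 1, 7 on both arrays of replicate 2 and 3 on both arrays with exposed RNA in Cy3. With each gill replicate required to lie within the window, 69 of the 79 would remain.

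The digestive gland replicates differed in a common direction. The ratio was higher in replicate 2 than in replicate 1 in 75 of the 79 transcripts, with a median difference of 0.33, whereas it was higher in replicate 2 for 43.0% of all probes for the exposed library. On loess-normalized ratios replicate 2 was higher in 63 of the 79, with a median difference of 0.15. The same direction was seen in 381 of the 390 SSH forward probes with the same limits, with a median difference of 0.43. The largest differences between replicates were those of c13680 (1.71 and 2.77), c22537 (1.58 and 2.44) and c125 (1.80 and 2.64). The replicates differed by more than 0.5 in 26 transcripts.

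The dye of the exposed RNA also moved with the ratio. In the 37 transcripts measured in control digestive gland, the ratio before loess normalization was larger with exposed RNA in Cy5 than in Cy3 in all 37, in both replicates. The median difference was 1.51 in replicate 1 and 0.99 in replicate 2. The share over all probes was not computed, so this direction is not shown to be particular to these transcripts. For c13680 the array with exposed RNA in Cy5 gave 2.76 in replicate 1, and its dye swap gave 0.66. In the 36 transcripts not measured in control digestive gland, the median difference was 0.10 and -0.10. On loess-normalized ratios the median difference in the 37 was -0.10 and -0.39, and that in the 36 was -0.51 and -0.74, with none of the 36 above 0 in either replicate. The dye difference thus changed with the normalization and did not vanish with it, and each replicate value averages over both dyes. All 79 ratios were above 0 on each of the 4 digestive gland arrays, and 48 transcripts were above 1.5 on each of them.

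**Figure D5:**
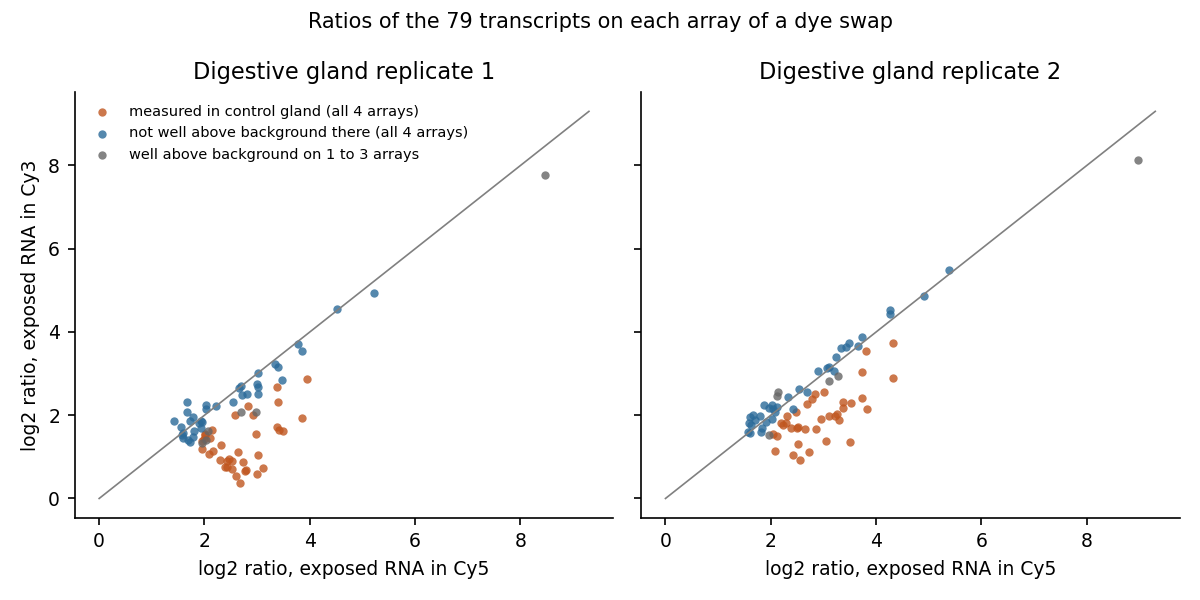
Log2 ratio of exposed over control signal, centred on the array's median and without loess, on the array with exposed RNA in Cy5 (horizontal axis) and on its dye swap (vertical axis), for the 79 transcripts in both digestive gland replicates; the line marks equal values. The 37 transcripts measured in control digestive gland (orange) all lie below the line, by a median of 1.51 and 0.99, and those not measured there (blue) lie near it.

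In 23 of the 79 transcripts the probe was spotted 2 times, and the paired spots differed on a digestive gland array by a median of 0.12 and at most 0.78 on the log2 scale. Only 2 of the 92 pairs differed by more than 0.5. These are repeats of 1 probe on 1 array and give the technical error of a spot, not that of a pool.

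The level in control mussels was compared between the tissues with limma on normalized channel levels. With Aquantile normalization 18 transcripts were higher in digestive gland than in gill (adjusted p under 0.05), against 19.7% of all probes, and 46 were lower, against 32.4% of all probes. With control RNA, 58 transcripts were well above background on no gill array and 36 on no digestive gland array. Many of these comparisons therefore involve a signal at background in gill, in digestive gland or in both. How many of the 18 and of the 46 were among them was not counted. Without the quantile step 46 (58.2%) were higher, against 53.1% of all probes, so that no direction is given for the group. The number lower after the quantile step was 28 (35.4%) without digestive gland replicate 1, against 25.2% of all probes, and 28 without digestive gland replicate 2, against 25.0%. It was 13 (16.5%) without the array named Cy6, against 31.1% of all probes. The control level was higher in digestive gland in each of the 4 scalings for c12917 and c21476, the transcripts with the highest control level in digestive gland against gill. For c21476, well above background in control gill on all 4 arrays, the difference was 3.15 to 4.98 on the log2 scale. For c12917 control gill was well above background on 1 of 4 arrays, so no size is given. For c2062 and c2267, the lowest, the direction was not the same in each scaling. The differences were -1.66 and -1.22 after the quantile step and -2.384 and -2.875 on the scanner software's processed signals. With a floor at 0 and 50 added they were -1.73 and -1.33. Only without the quantile step were they above 0, at 0.19 and 0.07.

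In the limma fit across all probes, with Benjamini-Hochberg adjustment, all 79 transcripts were called higher in exposed digestive gland, where 9.1% of all probes were. For the difference between the tissues 76 of the 79 were called, where 5.01% of all probes were called in that direction, and without gill replicate 2 the number was 46. In gill no transcript was called, where 0.00975% of all probes were called higher, and 8 of the 79 (10.1%) were higher at an unadjusted p under 0.05, against 7.13% of all probes. Since the limits used both tissues' ratios, nothing is read from these counts. The loess-normalized ratio had a median of 1.84 in digestive gland (1.25 to 7.96) and of 0.03 in gill (-0.22 to 0.47).

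Compared with the SSH forward probes that met the same limits, the 79 transcripts had a lower median ratio in digestive gland, 2.13 against 2.56 by the values that chose them and 1.84 against 2.24 after loess. Both medians are descriptions of groups chosen by the same limits, and the difference between the libraries was not tested. The 6 probes of the control library had a median of 1.91, and all 6 were well above background in control digestive gland on all 4 arrays.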

How the data were processed

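Per the labels, 8 hybridizations of digestive gland and gill RNA were read on 1 slide, as 2 replicates per tissue with a dye swap each. The authors deposited scanner output of Agilent Feature Extraction 10.7.3.1, whose spot and background median intensities and quality marks were used here. A second deposited table, used as an alternative, holds log2 values of red over green signal, and its processing is not given in the sources used here. The 79 transcripts were found by the subtraction, the added 50, the median centring and the limits described with the results. The values of a probe's spots and of each dye swap were averaged after turning every ratio to exposed over control. For the fits, background was corrected with normexp (offset 50) and ratios were normalized with loess in limma 3.58.1 (R 4.3.3), outlier spots were left out, and 1 fit with a mean per tissue was made on the 4 replicate values (2 residual degrees of freedom), with Benjamini-Hochberg adjustment over all probes at 0.05. Channel levels were further normalized with Aquantile. The scripts were tested on simulated data. Precision is limited by the 2 replicates per tissue, whose dye swaps repeat the same pools. The transcripts and comparisons were chosen with earlier results of these data known. Named are the 10 transcripts with the highest mean ratio in digestive gland, the 3 closest inside and the 3 closest outside its limit, the 3 with the largest replicate difference and those with the 2 highest and 2 lowest control levels in digestive gland against gill. Others named were chosen after their values were seen.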

Additional observations from a re-analysis of the deposited data

Results flagged for a closer look

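The exposure ratio differed between digestive gland and gill in 76 of the 79 transcripts by the limma test of the difference (adjusted p under 0.05, 5.01% of all probes called in that direction). The transcripts were selected on a high ratio in digestive gland and a ratio near 0 in gill, so this count describes the selection.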

How the results depend on the processing

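The number of transcripts that met the limits was 79. It was 192 with 10 added in place of 50 (62 of them shared with the 79), 330 on the scanner software's processed signals (45 shared), 129 on the authors' table of log2 ratios (67 shared), 180 with a limit of 1 and 34 with a limit of 2. With 1 replicate left out it ranged from 75 to 156, the latter without digestive gland replicate 1. The median ratio of the 79 in digestive gland, 2.13, became 3.29 with 10 added, 4.49 on processed signals and 2.72 on the authors' table, and 1.88 to 2.35 with 1 replicate left out. In gill the median, -0.01, became 0.11 on processed signals and 0.10 on the authors' table, and -0.0686 to 0.0117 with 1 replicate left out. The number called for the difference between tissues, 76, ranged from 46 (without gill replicate 2) to 65 with 1 replicate left out. The number higher in control digestive gland than in control gill, 18, was 46 without the quantile step and 14 to 17 with 1 replicate left out, and the number called in digestive gland was 68 to 79. Without the array written Cy6, 80 transcripts met the limits, the 79 among them.

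With the replicate number as a block (replicate block), 75 of the 79 were called for the difference between tissues. For the control levels with this block, 18 were called higher in digestive gland than in gill, against 20.3% of all probes. Called lower were 48, against 33.9% of all probes. Deviations of replicates with the same number correlated at 0.16 in the ratios and 0.21 in the control levels across probes, with 2 replicates per tissue, and the records do not say what the numbers share.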
